A study of Mus musculus with 22 samples.

Results

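The 42 genes described here encode the machinery of the cell division cycle and of DNA replication. They were chosen by name, and all 42 were found among the 45777 genes of the count tables. All 42 also passed the filter on low counts in both cohorts. The genes were measured by polyA-selected RNA sequencing of liver from male wild-type C57BL/6J mice, in 2 cohorts of 11 libraries that the labels also give as batches. In the HFD cohort, mice on a normal diet with vehicle (3 libraries) were set beside mice on a high-fat diet with vehicle (4 libraries) and on a high-fat diet with DTMB (4 libraries), and the high-fat groups are labelled MASLD, metabolic dysfunction-associated steatotic liver disease. In the MCD cohort, mice on a normal diet with vehicle (4 libraries) were set beside mice on a methionine-choline-deficient diet with vehicle (4 libraries) and with DTMB (3 libraries), and the diseased groups are labelled MASH, metabolic dysfunction-associated steatohepatitis. DTMB, a compound known here by its code name only, was dosed orally, 10 mg/kg each day. The labels call the replicates biological and say no more of the animals, their age or the length of feeding, so p-values measure the spread between these libraries.

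Adult hepatocytes are mostly quiescent and re-enter the cycle after injury or loss of tissue. D-type and E-type cyclins with their kinases release E2F transcription factors from the retinoblastoma proteins, and E2F targets such as the MCM helicase, the sliding clamp PCNA and the enzymes of nucleotide supply prepare DNA synthesis. Genes of mitosis are switched on later, by FoxM1 and by complexes that bind the cell cycle homology region (CHR) and CCAAT boxes of their promoters. The members were therefore read in this order: G1/S cyclins and E2F factors (6 genes), MCM helicase and PCNA (8), nucleotide supply (3), S/G2/M cyclins and kinases with FoxM1 (8), spindle checkpoint and ubiquitin ligase of mitotic exit (4), chromosomes, kinetochore and spindle (8), cytokinesis (4), and the CDK inhibitor p21, encoded by Cdkn1a (1). Whole liver was sequenced, so a change in the number of dividing cells and a change in RNA per cell cannot be told apart.

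The promoters of the members, which the rule did not use, were searched for 3 motifs of cell cycle regulation. RefSeq promoters on the GRCm38.p6 build, 250 bases before to 50 bases after the start site, were found for 34 of the 42 members (39 promoters). The 21 promoters of mitotic members came from 19 genes and the 16 of G1/S and replication members from 14. Ect2 and Prc1 have overlapping promoters from start sites close together, so the same matches are counted more than once. The CHR motif, TTTGAA on either strand, was present in 16 of 21 promoters of mitotic members (76.2%), in 3 of 16 of G1/S and replication members (18.8%) and in 17.9% of all 32851 promoters of that length. The E2F motif, searched as TTTCGCGC, TTTGGCGC or TTCCCGCC on either strand, was present in 6 of 16 promoters of G1/S and replication members (37.5%), in 1 of 21 of mitotic members (4.76%) and in 2.96% of all promoters. CCAAT boxes, searched as CCAAT on either strand, were present in 90.5% and 81.2% of these promoter sets and in 37.4% of all promoters. Motifs may share letters, as an E2F form and the reverse complement of another E2F form do in the Mcm5 and Mcm6 lines. A match describes the sequence only. The 250 bases before the start site are shown, 5′ to 3′ on the strand of the gene, for 3 mitotic members that carry the CHR motif and CCAAT boxes and for 2 helicase members that carry E2F motifs and CCAAT boxes, with every match of the 3 motifs in capitals.
Mki67 promoter, chr7:135716380-135716629, minus strand: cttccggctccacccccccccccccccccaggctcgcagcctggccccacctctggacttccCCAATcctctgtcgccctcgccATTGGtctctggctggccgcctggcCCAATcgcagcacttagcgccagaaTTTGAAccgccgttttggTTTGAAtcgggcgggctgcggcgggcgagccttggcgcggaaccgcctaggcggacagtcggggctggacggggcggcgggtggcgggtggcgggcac
Ccnb2 promoter, chr9:70421555-70421804, minus strand: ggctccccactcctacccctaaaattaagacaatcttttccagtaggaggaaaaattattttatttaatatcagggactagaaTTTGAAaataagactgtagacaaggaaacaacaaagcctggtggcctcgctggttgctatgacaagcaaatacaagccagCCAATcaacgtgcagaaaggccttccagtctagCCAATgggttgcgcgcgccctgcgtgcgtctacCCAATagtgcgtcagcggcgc
Cdc20 promoter, chr4:118437344-118437593, minus strand: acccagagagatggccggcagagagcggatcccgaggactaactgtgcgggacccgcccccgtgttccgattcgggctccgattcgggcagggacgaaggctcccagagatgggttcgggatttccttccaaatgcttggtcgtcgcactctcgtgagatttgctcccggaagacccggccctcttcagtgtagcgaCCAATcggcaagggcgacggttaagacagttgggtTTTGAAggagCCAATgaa
Mcm5 promoter, chr8:75109259-75109508, plus strand: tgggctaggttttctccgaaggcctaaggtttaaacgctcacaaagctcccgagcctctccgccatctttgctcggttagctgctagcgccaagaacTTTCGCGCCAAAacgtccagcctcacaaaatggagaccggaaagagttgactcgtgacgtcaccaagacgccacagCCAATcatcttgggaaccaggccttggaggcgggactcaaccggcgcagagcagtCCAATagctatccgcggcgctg
Mcm6 promoter, chr1:128359706-128359955, minus strand: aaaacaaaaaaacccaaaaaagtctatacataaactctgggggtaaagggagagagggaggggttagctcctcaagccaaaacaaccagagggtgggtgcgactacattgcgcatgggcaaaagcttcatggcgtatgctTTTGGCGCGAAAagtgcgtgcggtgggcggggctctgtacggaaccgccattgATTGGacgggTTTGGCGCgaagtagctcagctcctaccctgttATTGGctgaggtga

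Library totals ran from 50.1 to 66.7 M counts. Levels are given as CPM, reads of a gene scaled to the TMM-adjusted library size within a cohort, and levels should not be compared across cohorts. The hepatocyte list (10 genes, among them Alb and Apob) summed to between 77455 and 119041 CPM over all libraries. Pancreatic acinar genes, such as amylase and trypsinogens, summed to between 407 and 3445 CPM (over total counts) in 6 libraries and to at most 21.6 in the others. The 6 are HFD cohort normal diet replicates 1 and 3, HFD vehicle replicates 1 and 4, HFD DTMB replicate 3 and MCD cohort normal diet replicate 4. The main counts below are given again without them. HFD cohort normal diet replicate 1 also carried skeletal muscle transcripts, 192 CPM against at most 5.74 CPM in the others, and 5 of 6 tested muscle genes were called lower on the high-fat diet. Antisense genes overlap part of the exons of several members, among them Ints8 for Ccne2 (17.4% of exon length), Exosc9 for Ccna2 (12.5%), Gm2788 for E2f8 (11.2%), Rccd1 for Prc1 (11.1%) and the muscle gene Tnnc2 for Ube2c (22.8%). Tnnc2 was at 14.7 CPM in that muscle-bearing library, where Ube2c was at 0.217 CPM, the lowest of its group. The kit marks strand, but whether counting used it is not stated in the sources used here, so the part of shared reads was not tested.

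**Figure D1:**
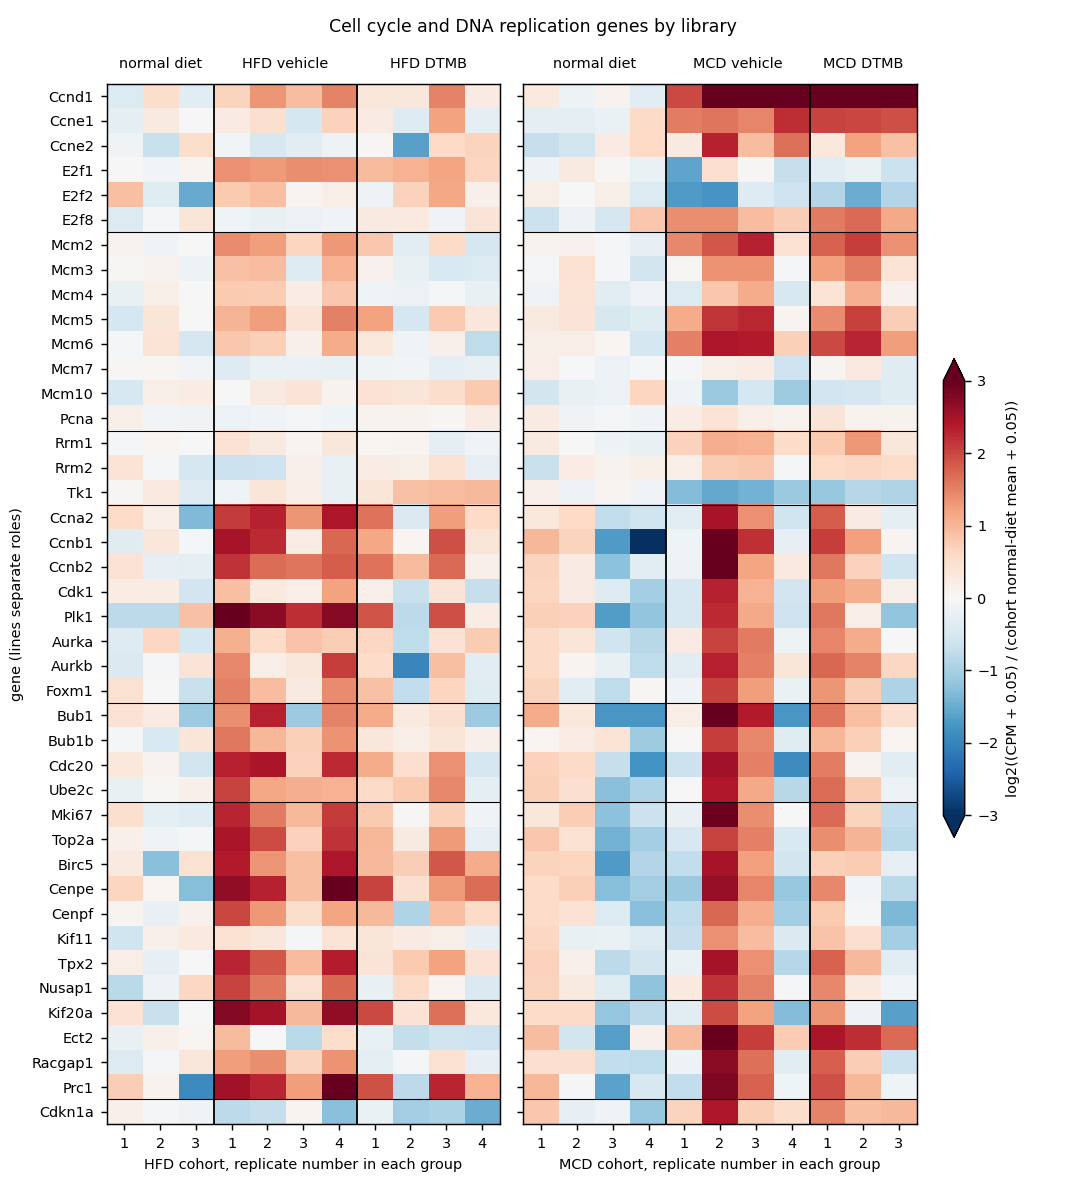
Level of each of the 42 genes (rows, in order of role) in each library (columns), as log2 of the CPM plus 0.05 over the mean of the cohort's normal-diet libraries plus 0.05; colours end at 3 in either direction. Mitotic genes are red in HFD vehicle replicates 1, 2 and 4 in MCD vehicle replicates 2 and 3 and in MCD DTMB replicate 1, while Ccnd1 passes the end of the scale in 3 of the 4 MCD vehicle libraries and in all 3 MCD DTMB libraries.

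The libraries of a group differed from each other in the same way across many members. Over the 40 members other than Ccnd1 and Cdkn1a, the median log2 ratio to the normal-diet mean was 1.41, 1.16, 0.40 and 1.35 in HFD vehicle replicates 1 to 4. It was 0.53, 0.076, 0.73 and 0.030 in HFD DTMB replicates 1 to 4. HFD vehicle replicate 3 was thus the lowest of its group and lay below HFD DTMB replicates 1 and 3. In the MCD vehicle group the same median was -0.15, 2.13, 1.34 and -0.35 in replicates 1 to 4, and in MCD DTMB it was 1.45, 0.77 and -0.17. MCD vehicle replicate 2 held the highest value of its cohort for 28 of the 40 members, whereas replicates 1 and 4 lay within the normal-diet range, which ran from -0.54 to 0.54.

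The first comparison asked how the high-fat diet with vehicle differed from the normal diet. Genes of mitosis made up most of the members that rose, while 2 of 8 helicase and clamp genes and 0 of 3 nucleotide supply genes did. Of the 42 members, 21 rose and 1 fell at an adjusted p under 0.05 (edgeR quasi-likelihood test with Benjamini-Hochberg adjustment over 15597 genes), where 15.2% of all genes were called higher and 12.6% lower. The median log2 fold change of the members was 1.23, against 0.015 over all genes tested. In 21 members every HFD vehicle library lay above every normal-diet library and in 1 every library lay below, a separation seen upward in 19.0% and downward in 17.0% of all genes. Levels were low: 3 members, Plk1, Bub1 and Cenpe, had fewer than 10 counts in each normal-diet library, and their fold changes are correspondingly loose. Other members called higher had few counts there as well, such as Kif20a (5 to 17), Cdc20 (7 to 18), Birc5 (2 to 13) and Prc1 (0 to 17).

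Among G1/S genes, 2 of 6 rose. E2f1, the transcription factor that drives entry into S phase, was at 1.5, 1.42 and 1.6 CPM in the normal-diet libraries and at 3.98, 3.71, 4.05 and 3.96 CPM in the HFD vehicle libraries. The groups were far apart and each was tight, replicate 3 included. The log2 fold change was 1.38 ± 0.15 (SE; adjusted p = 6.49e-05), the smallest p of the 42 members. Ccnd1, encoding cyclin D1, the G1 cyclin that answers to growth signals, was at 8.16, 15.8 and 8.77 CPM and rose to 17.5, 27.2, 20.9 and 30.8 CPM. Its groups did not overlap, although normal-diet replicate 2 came near the lowest HFD library, and the log2 fold change was 1.15 ± 0.33 (adjusted p = 0.0239). The call of Ccnd1 was lost, with an adjusted p of up to 0.0991, when normal-diet replicate 1 or 3 or HFD vehicle replicate 2 or 4 was left out. Ccne1 and Ccne2 (cyclin E), E2f2 and the repressor E2f8 were not called, with log2 fold changes from -0.27 to 0.56.

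In the helicase and clamp group 2 of 8 rose and 1 fell. Mcm4, a subunit of the replicative helicase, was at 2.59, 3.42 and 3.02 CPM on the normal diet and at 5.24, 5.16, 3.52 and 5.28 CPM on the high-fat diet. HFD vehicle replicate 3 stood just above the highest normal-diet library, and the other 3 lay close together; the log2 fold change was 0.68 ± 0.16 (adjusted p = 0.00801). Mcm2, another helicase subunit, rose by a log2 fold change of 1.21 ± 0.31 (adjusted p = 0.0127). Mcm7 fell by 0.25 ± 0.080 on the log2 scale (adjusted p = 0.0359). Exons of Mcm7 overlap those of Cops6 and Ap4m1 on the opposite strand, which were lower too, with log2 fold changes of -0.44 and -0.40. Mcm3, Mcm5, Mcm6, Mcm10, which helps activate the helicase, and Pcna were not called. No nucleotide supply gene was called, with 1 of the 3 at an unadjusted p under 0.05. Rrm1 and Rrm2, the ribonucleotide reductase subunits, had log2 fold changes of 0.28 ± 0.11 (adjusted p = 0.0735) and -0.31 ± 0.25 (adjusted p = 0.377), and thymidine kinase Tk1 of 0.068 ± 0.19 (adjusted p = 0.825).

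The mitotic groups held most of the calls. In the group of S/G2/M cyclins and kinases 4 of 8 rose (Ccna2, Ccnb1, Ccnb2 and Plk1). Ccnb2, a cyclin partner of CDK1, was at 0.279, 0.154 and 0.147 CPM on the normal diet and at 1.04, 0.726, 0.694 and 0.805 CPM on the high-fat diet. All 4 HFD libraries lay above all 3 normal-diet libraries, and the log2 fold change was 2.05 ± 0.44 (adjusted p = 0.00496). Ccna2, encoding the S-phase cyclin A2, rose by a log2 fold change of 2.27 ± 0.57 (adjusted p = 0.0117). Plk1, a kinase of mitotic entry, was at 0, 0 and 0.11 CPM on the normal diet and at 0.355 to 0.783 CPM on the high-fat diet, with every HFD library above the normal-diet libraries. Cdk1, Aurka, Aurkb and Foxm1 had positive log2 fold changes, from 0.75 to 1.48, and were not called.

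Of the spindle checkpoint and mitotic exit genes, 3 of 4 rose. They were Bub1b, a checkpoint kinase (1.31 ± 0.32, adjusted p = 0.00945), Cdc20, the activator of the anaphase-promoting complex (2.29 ± 0.57, adjusted p = 0.0107), and its ubiquitin-conjugating enzyme Ube2c (1.56 ± 0.45, adjusted p = 0.0227). In the chromosome, kinetochore and spindle group 7 of 8 rose, all but the motor Kif11. Mki67, encoding the Ki-67 protein that coats mitotic chromosomes and marks cycling cells (chr7:135689784-135716450 on GRCm38.p6, the build of all positions given), was at 1.24, 0.71 and 0.662 CPM on the normal diet and at 4.41, 2.67, 1.76 and 3.9 CPM on the high-fat diet. The groups did not overlap, and replicate 3 was again the lowest HFD library; the log2 fold change was 1.86 ± 0.37 (adjusted p = 0.00314). Top2a, the topoisomerase that untangles replicated chromosomes (chr11:98992947-99024199), was at 0.588, 0.48 and 0.515 CPM and rose to 3.12, 2.21, 0.888 and 2.54 CPM, a log2 fold change of 2.04 ± 0.45 (adjusted p = 0.00581). Tpx2, a spindle assembly factor that activates Aurora A, was at 0.279, 0.192 and 0.239 CPM and rose to 1.34, 0.994, 0.5 and 1.42 CPM, a log2 fold change of 2.15 ± 0.41 (adjusted p = 0.00238). In both genes even the lowest HFD library lay above all normal-diet libraries.

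Cytokinesis genes followed, with 3 of 4 called higher. Kif20a, a kinesin of the central spindle, rose by a log2 fold change of 2.63 ± 0.60 (adjusted p = 0.00716), with the limit that 29.3% of its exon length overlaps the antisense gene Cdc23, itself higher by 0.38. Racgap1, a part of the centralspindlin complex, was at 0.325, 0.441 and 0.589 CPM on the normal diet and at 1.15, 1.28, 0.742 and 1.22 CPM on the high-fat diet. The groups did not overlap, the log2 fold change was 1.28 ± 0.32 (adjusted p = 0.0105), and the adjusted p became 0.0509 without normal-diet replicate 1. Prc1, which bundles microtubules of the midzone, also rose, and Ect2 was not called. Cdkn1a, the p21 inhibitor of cyclin-dependent kinases and a p53 target (chr17:29090979-29100722), was at 104, 89.3 and 86.9 CPM on the normal diet and at 54, 58.2, 98.3 and 39.3 CPM on the high-fat diet. HFD vehicle replicate 3 lay inside the normal-diet range and the other 3 below it, and the log2 fold change of -0.58 ± 0.31 was not called (adjusted p = 0.177). Without replicate 3 Cdkn1a was called lower, at -0.89 ± 0.27 (adjusted p = 0.0297).

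Without the libraries that carry acinar transcripts, the cohort kept 1 library on the normal diet, 2 with vehicle and 3 with DTMB, so the lone normal-diet library is assumed to vary like the other groups. There 1 member, E2f1, was called higher (2.41% of all genes), the members' median log2 fold change was 0.87, and 9 members had an unadjusted p under 0.05. With all 22 libraries in one fit 7 members were called higher (9.58% of all genes). With genes above 1 CPM in 3 libraries only, 26 of the 42 members were tested and 12 were called higher (18.4% of all genes).

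**Figure D2:**
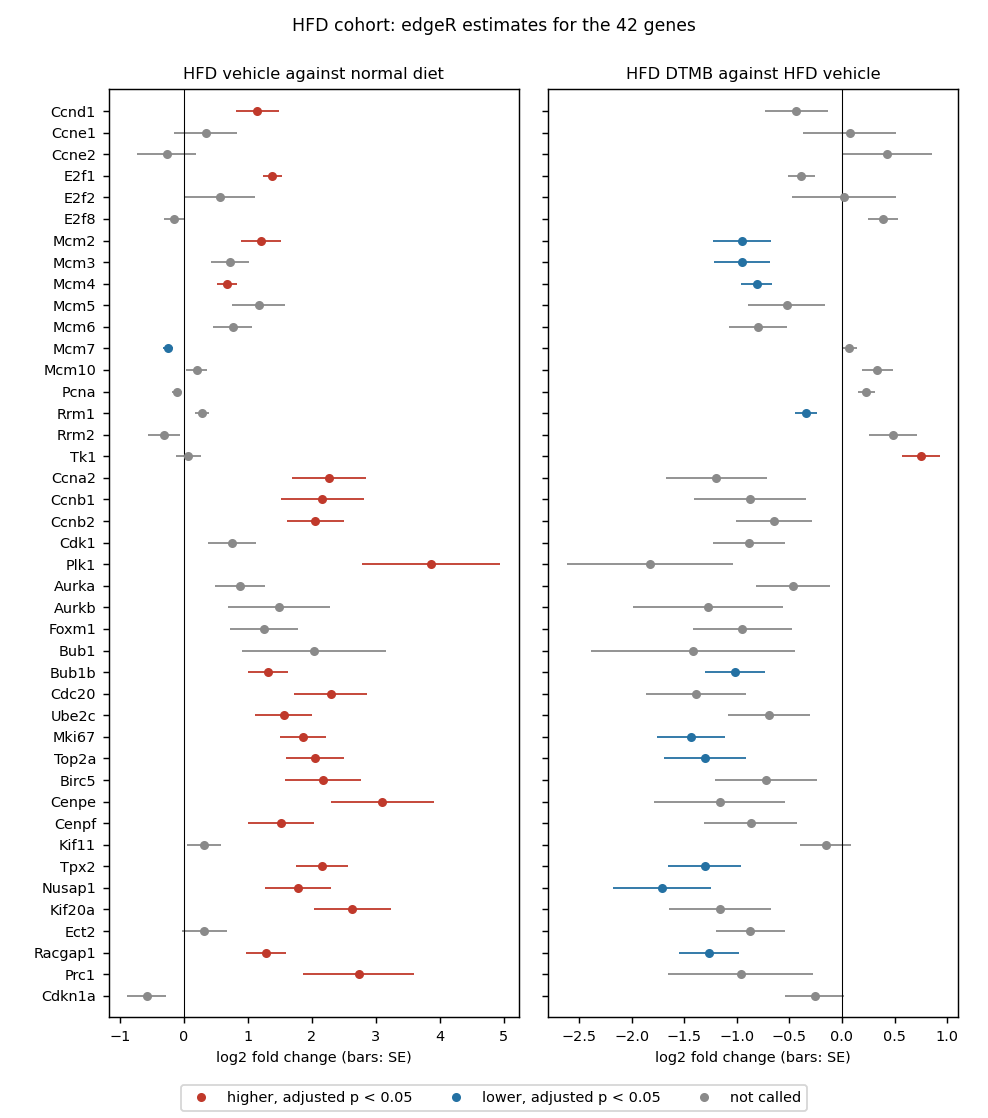
Log2 fold change (points) with its standard error (bars) of the 42 genes in the HFD cohort, for the high-fat diet against the normal diet (left) and for DTMB against vehicle on the high-fat diet (right). On the left 21 genes are called higher and 1 lower; on the right 10 are called lower and 1 higher, and the 2 panels share the 4 HFD vehicle libraries and differ in axis range.

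The next comparison asked how DTMB differed from vehicle on the high-fat diet. Of the 42 members 10 fell and 1 rose, where 6.04% of all genes were called lower and 6.64% higher. The genes that fell were Mcm2, Mcm3, Mcm4, Rrm1, Bub1b, Mki67, Top2a, Tpx2, Nusap1 and Racgap1, and the gene that rose was Tk1. The members' median log2 fold change was -0.84, against -0.015 over all genes tested. In 6 members every DTMB library lay below every vehicle library and in 3 every one lay above, as in 9.35% and 10.5% of all genes. The 4 vehicle libraries also stand in the diet comparison, so the 2 comparisons are not independent.

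Helicase genes fell in 3 of 8 cases. Mcm4 was at 5.24, 5.16, 3.52 and 5.28 CPM with vehicle and at 2.73, 2.68, 2.95 and 2.57 CPM with DTMB. All DTMB libraries lay close together and below the vehicle group, and the log2 fold change was -0.81 ± 0.15 (adjusted p = 0.0109). Mcm3 fell by 0.95 ± 0.27 on the log2 scale (adjusted p = 0.0399), with vehicle replicate 3, at 1.47 CPM, inside the DTMB range. Mcm2 fell by the same 0.95 ± 0.28 (adjusted p = 0.0447). In nucleotide supply Rrm1 fell by 0.34 ± 0.10 (adjusted p = 0.047), and Rrm2 was not called (0.49 ± 0.23, adjusted p = 0.173).

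Tk1, which salvages thymidine for DNA synthesis (chr11:117815519-117826087), went the other way. It was at 5.79, 8.19, 7.29 and 5.49 CPM with vehicle and at 8.29, 11.9, 12.2 and 12.7 CPM with DTMB. The DTMB libraries lay above the vehicle libraries, replicate 1 only just, and the log2 fold change was 0.75 ± 0.18 (adjusted p = 0.0222). This call was lost in 5 of the 8 fits that leave out 1 library, with an adjusted p of up to 0.0716. The antisense gene Afmid overlaps 1.6% of the exon length of Tk1. It stood at a median of 115 CPM over all libraries against 9.39 CPM for Tk1, and was higher with DTMB too, by 0.39 ± 0.11 (adjusted p = 0.0436). The part of shared reads in the Tk1 result was not tested.

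Mitotic genes gave 6 of the falls. Mki67 was at 1.53, 0.886, 1.47 and 0.812 CPM in the DTMB libraries, all below the vehicle range of 1.76 to 4.41 CPM, and the log2 fold change was -1.44 ± 0.32 (adjusted p = 0.0195). Top2a was at 1.1, 0.644, 1.35 and 0.44 CPM in the DTMB libraries, and the log2 fold change was -1.31 ± 0.39 (adjusted p = 0.0479). Vehicle replicate 3, at 0.888 CPM, overlapped the DTMB group of Top2a. Racgap1 was at 0.359, 0.443, 0.642 and 0.372 CPM, all below the vehicle range of 0.742 to 1.28 CPM, with a log2 fold change of -1.27 ± 0.29 (adjusted p = 0.0197). Tpx2, at 0.324, 0.443, 0.609 and 0.339 CPM, overlapped the vehicle group through vehicle replicate 3 and had a log2 fold change of -1.31 ± 0.35 (adjusted p = 0.0324). Nusap1, which bundles spindle microtubules, and Bub1b fell by 1.71 ± 0.47 (adjusted p = 0.0352) and 1.02 ± 0.28 (adjusted p = 0.0382).

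Members not called included all 8 S/G2/M cyclins and kinases, whose log2 fold changes were all below 0 with a median of -0.92. In that group Cdk1, the master kinase of mitosis, had -0.89 ± 0.35 (adjusted p = 0.106) and Ccna2 -1.2 ± 0.48 (adjusted p = 0.115). Ccnb2 was at 0.701, 0.423, 0.741 and 0.22 CPM with DTMB, overlapping the vehicle group (adjusted p = 0.249). Cdc20 had -1.39 ± 0.48 (adjusted p = 0.0752, and 0.0358 with DESeq2) and Ect2, a guanine exchange factor of cytokinesis, -0.87 ± 0.33 (adjusted p = 0.0986). E2f1 was at 2.97, 3.16, 3.51 and 2.37 CPM with DTMB, below every vehicle library, yet its log2 fold change of -0.39 ± 0.13 was not called (adjusted p = 0.0652). E2f8 had 0.39 ± 0.15 (adjusted p = 0.0962). Ccnd1 was at 13.8, 13.9, 30.4 and 13 CPM with DTMB, of which replicate 3 stood with the highest vehicle library (-0.44 ± 0.30, adjusted p = 0.345). Cdkn1a was at 81.8, 45.2, 48.3 and 33.3 CPM with DTMB, overlapping the vehicle group (-0.26 ± 0.28, adjusted p = 0.566).

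The count of falls depended on single libraries, and the share of all genes called lower, 6.04% in the main fit, changed too (in brackets). It was 1 without HFD vehicle replicate 1 (1.56%), HFD vehicle replicate 4 (1.85%) or HFD DTMB replicate 4 (1.73%). The count was 2 without vehicle replicate 2 (2.99%), 3 without DTMB replicate 2 (3%) and 4 without DTMB replicate 3 (2.48%). It was 6 without DTMB replicate 1 (7.68%) and rose to 14 without vehicle replicate 3 (8.47%). By gene, the calls of Top2a and Bub1b were lost in 7 of the 8 fits that leave out 1 library. Those of Tpx2, Mcm3 and Rrm1 were lost in 6 and those of Mki67 and Racgap1 in 4. The call of Mcm4 was kept in all 8, and Mcm2 and Nusap1 were not followed by gene. Without the libraries that carry acinar transcripts edgeR called no member in either direction (0% of all genes), with 7 members at an unadjusted p under 0.05 and a members' median of -0.62.

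**Figure D3:**
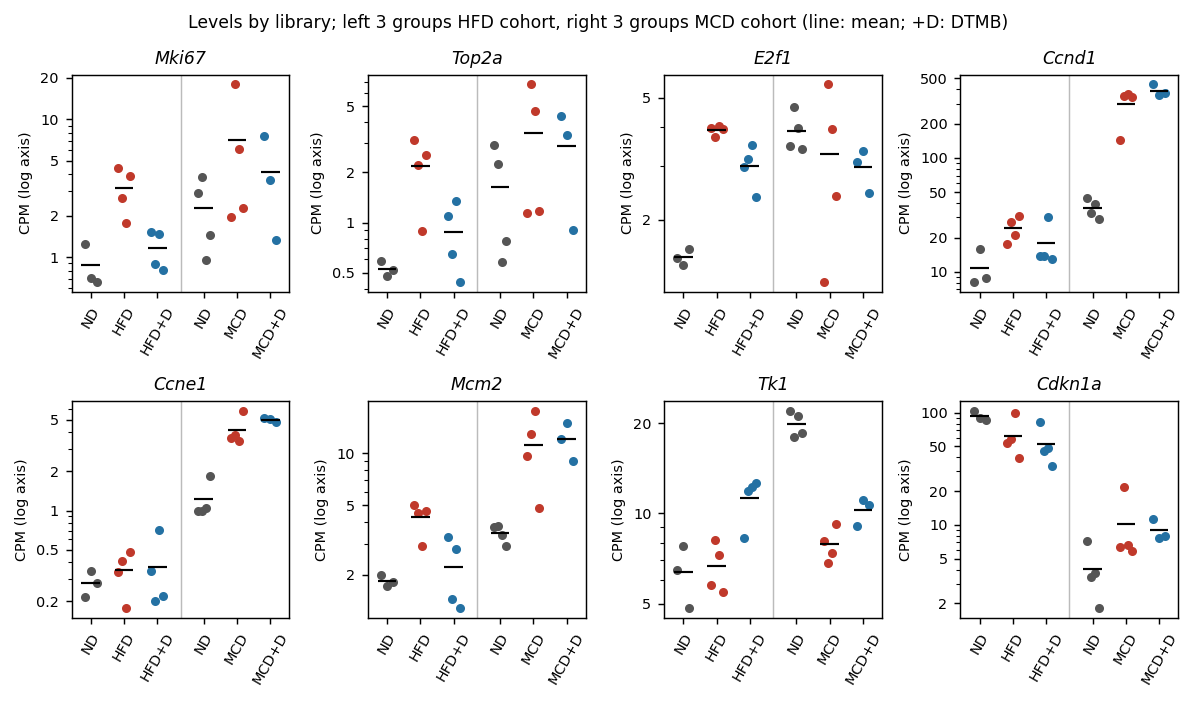
Level in CPM (log axes, scaled within each cohort) of 8 members in every library; points are libraries, lines group means, ND normal diet and +D DTMB. Mki67 and Mcm2 stand higher in the HFD vehicle libraries than in the normal-diet libraries of that cohort, Ccnd1 and Ccne1 stand higher in every MCD vehicle and MCD DTMB library than in their normal-diet libraries, and Tk1 stands lower in them.

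Against the normal diet, the livers of mice given DTMB on the high-fat diet had 4 of 42 members higher (15.7% of all genes) and none lower (13.5%) by edgeR (29.2% of all genes in either direction), with 9 members at an unadjusted p under 0.05. DESeq2 called 5 higher and 0 lower, where it called 10.7% and 9.98% of all genes. E2f1 was higher by 0.99 ± 0.15 (adjusted p = 0.000457), and its 4 DTMB libraries lay above all 3 normal-diet libraries. Tk1 was higher by 0.82 ± 0.20 (adjusted p = 0.00825), Mcm10 by 0.53 ± 0.16 (adjusted p = 0.0274) and Ccnb2 by 1.41 ± 0.44 (adjusted p = 0.0319). The members' median was 0.42, and Mki67 and Top2a were not called. In 5 members the DTMB libraries lay wholly above and in 3 wholly below the normal-diet libraries, as in 18.9% and 16.5% of all genes. Without the libraries that carry acinar transcripts no member was called, and E2f1 had an adjusted p of 0.0693; the calls of Mcm10 and Ccnb2 were lost in 3 and 4 of the 7 fits that leave out 1 library, without normal-diet replicate 1 or DTMB replicate 3 or 4 for Mcm10 and without normal-diet replicate 2 or 3 or DTMB replicate 1 or 3 for Ccnb2.

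In the MCD cohort the same question was asked of the methionine-choline-deficient diet with vehicle. Here 4 of 6 G1/S genes and 3 of 8 helicase and clamp genes rose, and edgeR called none of the S/G2/M, checkpoint or spindle genes. Of the 42 members 10 rose and 2 fell, where 20.3% of all genes were called higher and 21% lower (41.3% in all), so the shares of members called (23.8% and 4.76%) lay near the background upward and below it downward. The members' median log2 fold change was 1.24, against 0.0039 over all genes tested, and 0.56 without MCD vehicle replicate 2. In 5 members the vehicle libraries lay wholly above and in 1 wholly below the normal-diet libraries, as in 17.8% and 19.9% of all genes.

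Ccnd1 (chr7:144929931-144939831) was at 44.8, 32.7, 39.3 and 29.1 CPM on the normal diet and at 145, 348, 368 and 341 CPM on the MCD diet. Even MCD vehicle replicate 1, the lowest of its group, lay above the normal-diet range, and the log2 fold change was 3.04 ± 0.27 (adjusted p = 7.74e-06). LTO1, an antisense gene that overlaps 23.4% of the exon length of Ccnd1, had a log2 fold change of 0.082. Ccne1 was at 0.999, 0.993, 1.05 and 1.83 CPM and rose to 3.63, 3.8, 3.46 and 5.86 CPM, with a log2 fold change of 1.78 ± 0.24 (adjusted p = 0.00017). Its groups did not overlap, with normal-diet replicate 4 and vehicle replicate 4 the highest of their groups. Ccne2 was at 0.425, 0.474, 0.872 and 1.12 CPM on the normal diet and at 0.875, 3.78, 1.42 and 2.37 CPM on the MCD diet, a log2 fold change of 1.54 ± 0.46 (adjusted p = 0.0184) with overlap through vehicle replicate 1. E2f8, a repressor linked to hepatocyte polyploidy, rose by 1.16 ± 0.31 (adjusted p = 0.00994), and E2f2 fell by 1.01 ± 0.33 on the log2 scale (adjusted p = 0.0268). E2f1 was at 3.48, 4.67, 3.97 and 3.39 CPM on the normal diet and at 1.25, 5.52, 3.94 and 2.38 CPM on the MCD diet, with the vehicle libraries on both sides of the normal-diet range (-0.24 ± 0.35, adjusted p = 0.608).

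Of the helicase genes 3 of 8 rose. Mcm6 was at 3.81, 3.88, 3.51 and 2.35 CPM on the normal diet and at 9.69, 18.4, 17.7 and 5.63 CPM on the MCD diet. All vehicle libraries lay above the normal-diet group, with replicates 2 and 3 the highest, and the log2 fold change was 1.93 ± 0.36 (adjusted p = 0.00133). Mcm2 rose by 1.68 ± 0.32 (adjusted p = 0.00144) and Mcm5 by 1.66 ± 0.45 (adjusted p = 0.0113). Mcm3, Mcm4, Mcm7, Mcm10 and Pcna were not called. Rrm1, the large subunit of ribonucleotide reductase, rose by 0.87 ± 0.20 (adjusted p = 0.0053).

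Tk1 fell. It was at 22, 17.9, 21.1 and 18.6 CPM on the normal diet and at 8.07, 6.85, 7.36 and 9.24 CPM on the MCD diet, a log2 fold change of -1.34 ± 0.12 (adjusted p = 1.16e-05). The groups were tight and far apart, and Tk1 stood against the median of the members. Its antisense neighbour Afmid fell by 2.98 ± 0.20 on the log2 scale (adjusted p = 1.46e-06), and the part of shared reads in the Tk1 result was not tested.

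Many mitotic members had widely spread libraries. Mki67 was at 2.9, 3.81, 0.949 and 1.45 CPM on the normal diet and at 1.94, 17.9, 6.07 and 2.28 CPM on the MCD diet. Vehicle replicates 2 and 3 stood above every normal-diet library and replicates 1 and 4 inside their range, so the log2 fold change was 1.63 ± 0.74 (adjusted p = 0.0949). Top2a was at 2.9, 2.23, 0.581 and 0.777 CPM on the normal diet and at 1.15, 6.76, 4.71 and 1.17 CPM on the MCD diet (1.09 ± 0.69, adjusted p = 0.229). Ccnb2 was at 1.09, 0.79, 0.252 and 0.518 CPM and at 0.587, 6.1, 1.57 and 0.826 CPM (1.77 ± 0.75, adjusted p = 0.0764). The same split between vehicle replicates 2 and 3 and replicates 1 and 4 was present in all 3 genes.

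None of the 8 S/G2/M cyclins and kinases, the 4 checkpoint genes or the 8 chromosome and spindle genes was called by edgeR, although all of their log2 fold changes were above 0, with medians of 1.27, 1.26 and 1.28. At an unadjusted p under 0.05 there were 6 of these genes, and of those named here DESeq2 called Ccnb2 (adjusted p = 0.0224) and Aurkb (adjusted p = 0.0403). Over the 42 members DESeq2 called 15 higher and 3 lower, where it called 15.7% and 13.6% of all genes. Among those of smallest p were the Aurora B kinase gene Aurkb (1.46 ± 0.60, adjusted p = 0.0687), Nusap1 (1.32 ± 0.59, adjusted p = 0.0909), Bub1b (1.17 ± 0.54, adjusted p = 0.0997) and Bub1 (2.38 ± 1.21, adjusted p = 0.135). Of the cytokinesis genes Ect2 rose by 2.1 ± 0.59 (adjusted p = 0.0145), and Racgap1 was not called by edgeR (1.57 ± 0.72, adjusted p = 0.1) and was called by DESeq2 (adjusted p = 0.038). Cdkn1a was at 7.14, 3.41, 3.74 and 1.81 CPM on the normal diet and at 6.38, 22, 6.6 and 5.85 CPM on the MCD diet. It rose by a log2 fold change of 1.34 ± 0.48 (adjusted p = 0.0407) with normal-diet replicate 1 inside the vehicle range, and its call was lost, with an adjusted p of up to 0.172, without normal-diet replicate 2, 3 or 4 or vehicle replicate 2.

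Scaling by library size alone moved the median of all genes by 0.47 and gave 21 members higher and 1 lower in place of 10 and 2, and in that setting Mki67 (adjusted p = 0.0321) and Ccnb2 (adjusted p = 0.0272) were called. There 47.9% of all genes were called higher and 7.3% lower, so the members' share lay near the background. The count of rises was 18 with all 22 libraries in one fit (23.5% of all genes) and 18 without MCD vehicle replicate 4 (20.9%). Without normal-diet replicate 4, which carries acinar transcripts, 9 members rose and 2 fell, where 17.7% and 18.2% of all genes were called.

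**Figure D4:**
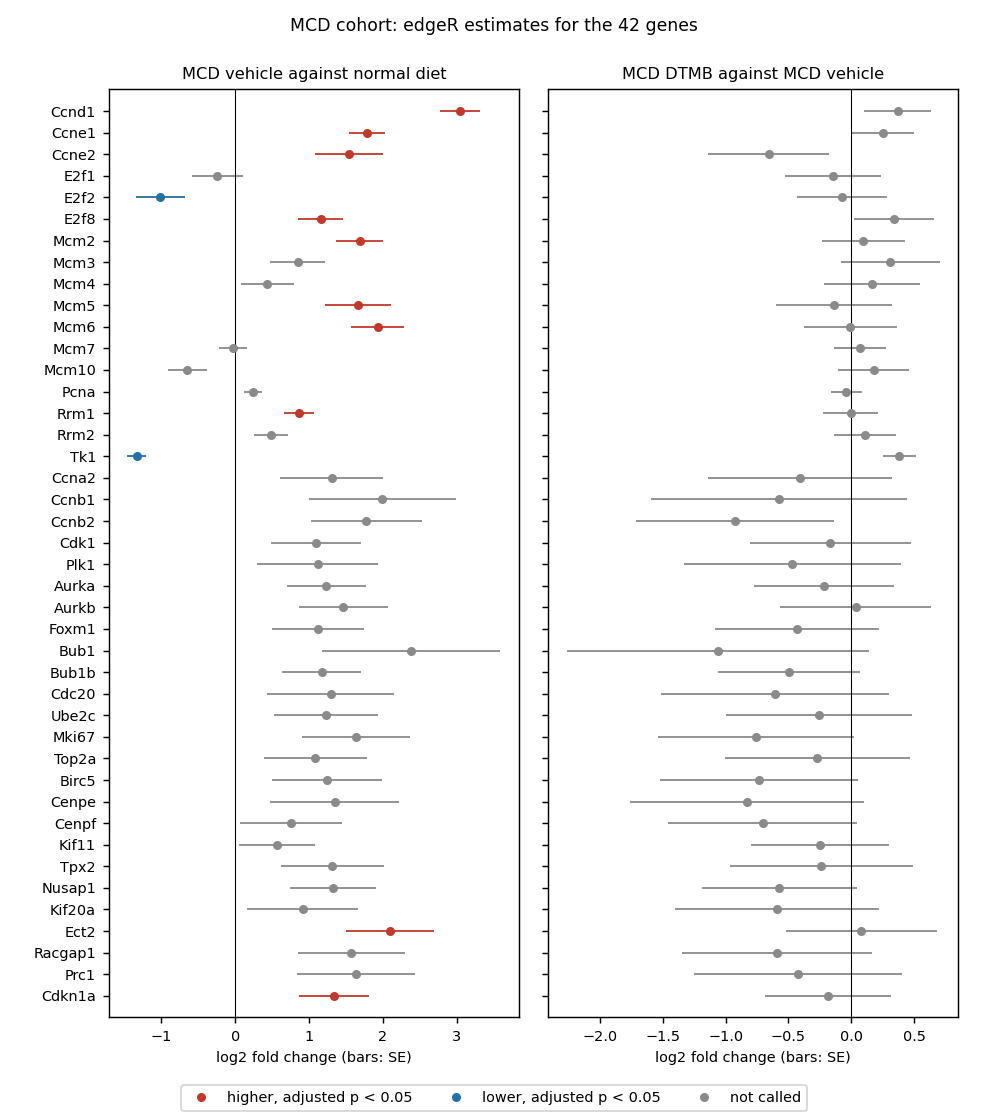
Log2 fold change (points) with its standard error (bars) of the 42 genes in the MCD cohort, for the MCD diet against the normal diet (left) and for DTMB against vehicle on the MCD diet (right). On the left the 10 genes called higher and 2 called lower lie among G1/S, helicase, nucleotide supply and cytokinesis genes and Cdkn1a; on the right none is called, and the bars of the mitotic genes are long in both panels.

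DTMB against vehicle on the MCD diet gave no call among the 42 members with edgeR or with DESeq2, where 0.00624% of all genes were called higher (1 gene) and 0% lower. At an unadjusted p under 0.05 there was 1 member, Tk1. The members' median log2 fold change was -0.23, against 0.017 over all genes. It was 0.23 without MCD vehicle replicate 2 and 0.055 without MCD DTMB replicate 3, so its sign rests on single libraries. Every member's groups overlapped, while 2.59% and 3.27% of all genes had groups apart upward and downward. Tk1 was at 9.05, 11 and 10.7 CPM with DTMB, with replicates 2 and 3 above the vehicle range of 6.85 to 9.24 CPM and replicate 1 inside it (0.38 ± 0.13, adjusted p = 0.919). Ccnd1 was at 443, 354 and 369 CPM, as high as with vehicle (0.37 ± 0.27, adjusted p = 0.924), and Ccne1 at 5.14, 5.03 and 4.76 CPM (0.25 ± 0.25, adjusted p = 0.937).

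Mki67 was at 7.54, 3.66 and 1.34 CPM with DTMB, a log2 fold change of -0.76 with a 95% interval from -2.46 to 0.94. Top2a was at 4.34, 3.35 and 0.906 CPM, with an interval from -1.87 to 1.33. The values of -1.44 and -1.31 fitted for these genes in the HFD cohort lie inside these intervals. Ccnb2 was at 2.09, 1.1 and 0.419 CPM (-0.92 ± 0.79), Ccne2 at 0.905, 1.73 and 1.38 CPM (-0.66 ± 0.48) and Cdkn1a at 11.3, 7.62 and 7.92 CPM (-0.19 ± 0.50). Mcm6 was at 13.4, 16.8 and 8.2 CPM with DTMB (-0.0062 ± 0.37), all inside the vehicle range. Other members of smallest p in their roles, none of them called, were Mcm3 (0.31 ± 0.39), Mcm10 (0.18 ± 0.28), Rrm2 (0.11 ± 0.25), Foxm1 (-0.43 ± 0.65), Bub1 (-1.06 ± 1.2), Bub1b (-0.50 ± 0.57), Cenpf (-0.71 ± 0.75), Racgap1 (-0.59 ± 0.76) and Kif20a (-0.59 ± 0.81).

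Against the normal diet, mice given DTMB on the MCD diet had 9 of 42 members higher (16.2% of all genes) and 2 lower (16.4%; 32.6% in either direction), and the groups were wholly apart upward in 11 members and downward in 3, as in 21.7% and 22.4% of all genes. Ccnd1 was higher by 3.41 ± 0.28 (adjusted p = 7.01e-06), Ccne1 by 2.03 ± 0.26 (adjusted p = 0.000134) and Mcm2 by 1.78 ± 0.34 (adjusted p = 0.00194). Tk1 had a log2 fold change of -0.95 ± 0.14 (adjusted p = 0.000297). Scaling by library size alone moved the median of all genes by 0.37 and gave 13 higher and 1 lower in place of 9 and 2, where 36.2% and 6.84% of all genes were called. Without the normal-diet library that carries acinar transcripts, 7 were higher and 2 lower, where 13.6% and 14.2% of all genes were called.

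Whether the diet effect differed between the cohorts was tested in one fit over all 22 libraries, as the effect of the MCD diet minus that of the high-fat diet, with no library in common between these effects. The difference was called in 8 of 42 members, 6 higher (16.8% of all genes) and 2 lower (18.5%; 35.3% in either direction). Tk1 had a difference of -1.38 ± 0.24 (adjusted p = 0.000158), Ccnd1 of 1.92 ± 0.44 (adjusted p = 0.00212), E2f1 of -1.59 ± 0.42 (adjusted p = 0.0055) and E2f8 of 1.35 ± 0.37 (adjusted p = 0.00703). Cdkn1a, Ccne1, Ccne2 and Pcna made up the rest, all with the higher log2 fold change on the MCD diet. Except for Tk1, Pcna and Cdkn1a these are G1/S genes. None of the S/G2/M, checkpoint, spindle or cytokinesis genes had a difference called by edgeR, with 1 of them, Ect2, at an unadjusted p under 0.05. Without the libraries that carry acinar transcripts, which leaves 1 normal-diet library in the HFD cohort, E2f1 had a difference of -1.71 ± 0.70. Its SE was thus larger than in the main fit. The count of higher differences was 3 without MCD cohort normal diet replicate 2 (15.1% of all genes) or MCD vehicle replicate 2 (16.3%). Cohort and batch are the same here, so a difference between diets and one between batches cannot be told apart.

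**Figure D5:**
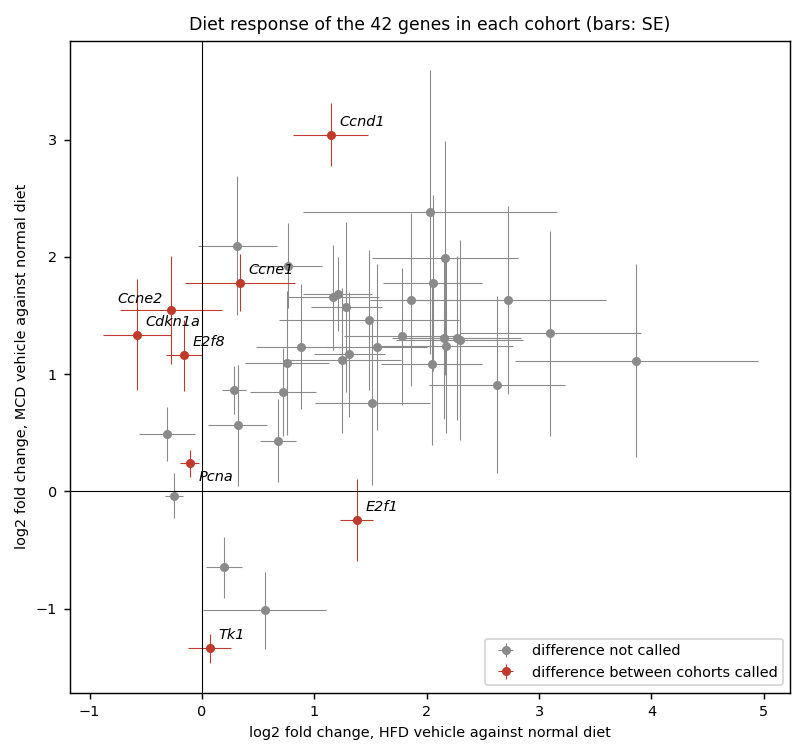
Log2 fold change of each of the 42 genes on the high-fat diet (x axis) and on the MCD diet (y axis), each against the normal diet of its cohort, with standard errors. The 8 named genes (red) have a difference between the cohorts called at an adjusted p under 0.05; Ccnd1 lies at 1.15 and 3.04, E2f1 at 1.38 and -0.24 and Tk1 at 0.068 and -1.34.

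For the effect of DTMB, no difference between the cohorts was called among the 42 members by edgeR (0% of all genes in either direction) or DESeq2 (0.0899% higher and 0.0704% lower), and 3 members had an unadjusted p under 0.05 in edgeR. The members of smallest p were Mcm3 (1.25 ± 0.50, adjusted p = 0.509), Mcm4 (0.96 ± 0.42, adjusted p = 0.53), Mcm2 (1.03 ± 0.46, adjusted p = 0.531) and Pcna (-0.29 ± 0.14, adjusted p = 0.597), given as the MCD effect minus the HFD effect. A difference in response to DTMB between the cohorts was thus not shown.

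Other genes of the same processes, from lists that do not overlap with the members, were counted in the same fits. On the high-fat diet those fits called 15.2% of all genes higher and 12.6% lower. With DTMB on that diet they called 6.64% higher and 6.04% lower. On the high-fat diet 10 of 32 tested replication genes rose and 0 fell, among them the single-strand binding subunit Rpa1 (0.46 ± 0.07, adjusted p = 0.000913). Of 51 tested mitotic genes 14 rose and 1 fell, among them the checkpoint gene Mad2l1 (1.25 ± 0.20) and Hmmr (4.46 ± 0.94), a spindle gene. Of 22 other G1, CDK and RB-E2F genes 2 rose and 5 fell, with the phosphatase gene Cdc25a at -0.59 ± 0.16 and the E2F partner Tfdp2 at -0.46 ± 0.13. With DTMB on the high-fat diet 5 of the 51 mitotic genes fell (Nek2 at -0.76 ± 0.15, Smc2 at -0.66 ± 0.16) and 1 rose, and 1 of 32 replication genes fell, the polymerase subunit Pola1 (-0.60 ± 0.17, adjusted p = 0.0409).

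On the MCD diet 20.3% of all genes were called higher and 21% lower. The counts of the replication, mitotic and G1 lists lay near or below these shares. Of 36 replication genes 8 rose and 2 fell, with the ligase Lig1 at 1.23 ± 0.20 and the helicase partner Gins2 at 2.02 ± 0.34. Of 56 mitotic genes 7 rose and 3 fell, with the kinetochore gene Spc25 at 2.11 ± 0.24 and cyclin F, Ccnf, at -1.45 ± 0.21. Of the other G1, CDK and RB-E2F genes 3 of 22 rose, such as Cdk6 (1.03 ± 0.18), and 5 fell, such as the pocket protein gene Rbl2 (-0.48 ± 0.10). The CDK inhibitors p18, encoded by Cdkn2c, and p57, encoded by Cdkn1c, rose by 1.49 ± 0.11 (adjusted p = 1.66e-06) and 2.50 ± 0.36 (adjusted p = 0.000218), the 2 calls among 5 tested inhibitors other than p21. None of these lists had a call with DTMB on the MCD diet in edgeR.

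On the high-fat diet 15.2% of all genes were called higher and 12.6% lower, and on the MCD diet 20.3% and 21%. Targets of p53 other than Cdkn1a rose on the high-fat diet in 12 of 23 cases and fell in 0. They were led by Ccng1 (1.13 ± 0.09, adjusted p = 1.21e-05) and the nuclease gene Aen (0.86 ± 0.07, adjusted p = 2.31e-05). With DTMB on that diet 4 of the 23 fell, where 6.04% of all genes were called lower. Aen fell by 0.31 ± 0.07 and Ccng1 by 0.33 ± 0.08 on the log2 scale. Cdkn1a itself was called in neither comparison in the main fits. On the MCD diet 9 of the 23 rose, with Phlda3 at 2.20 ± 0.48, and 4 fell, with the death receptor Fas at -0.57 ± 0.10. Of 11 hepatocyte growth factors and receptors 4 rose and 1 fell on the MCD diet, among them the EGF receptor ligand amphiregulin, Areg, at 7.87 ± 1.15 (adjusted p = 0.000736), and its receptor Egfr at -2.56 ± 0.33 (adjusted p = 0.000101). On the high-fat diet 1 of 10 tested rose, the ligand Btc (0.74 ± 0.19), and 2 fell, among them Erbb3 (-0.66 ± 0.14).

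Some lists of markers of other cells moved with these genes and others did not. In the HFD cohort endothelial markers summed to 168 to 208 CPM on the normal diet and 119 to 188 CPM with vehicle. Erythroid markers summed to 353 to 468 CPM on the normal diet, 556 to 584 with vehicle and 615 to 1827 with DTMB. On the high-fat diet 15.2% of all genes were called higher and 12.6% lower, and with DTMB 6.04% were called lower. Of 18 macrophage markers 9 rose and 1 fell on the high-fat diet (Cx3cr1 at 2.74 ± 0.40, Cd9 at -0.71 ± 0.10), and 3 fell with DTMB. Their summed level was 197 to 291 CPM on the normal diet, 265 to 661 CPM with vehicle and 265 to 390 CPM with DTMB, and no marker was at 0 in a whole group. By library it was 661, 409, 265 and 564 CPM in HFD vehicle replicates 1 to 4, where replicate 3 was lowest as it was for the members. Of the T and NK cell markers 2 of 14 tested rose on the high-fat diet (Cd8b1 and Cd4), with summed levels of 3.13 to 3.64 CPM on the normal diet and 3.5 to 7.91 CPM with vehicle. Of 11 stellate cell and fibroblast markers 4 rose on the high-fat diet (Col3a1 at 2.48 ± 0.33) and 4 fell with DTMB (Col3a1 at -1.62 ± 0.29), with sums of 238 to 270 CPM on the normal diet, 262 to 411 CPM with vehicle and 225 to 265 CPM with DTMB.

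In the MCD cohort 10 of 18 macrophage markers rose on the diet, where 20.3% of all genes were called higher. Among them were Gpnmb at 9.36 ± 0.82 and Trem2 at 5.51 ± 0.52. None of the 18 macrophage markers fell or was called with DTMB in edgeR. Their summed level was 271 to 739 CPM on the normal diet, 657 to 1655 CPM with vehicle and 561 to 996 CPM with DTMB. MCD vehicle replicates 2 and 3, the 2 libraries with high mitotic genes, had the highest sums of their group, 1655 and 1144 CPM, against 657 and 815 CPM in replicates 1 and 4. In the normal-diet group the sum was highest in replicate 2, at 739 CPM, while the members' median log2 ratio was highest in replicate 1, at 0.54. Of 11 stellate cell and fibroblast markers 5 rose on the MCD diet, with sums of 153 to 369 CPM on the normal diet and 420 to 732 CPM with vehicle. Erythroid markers went the other way, with sums of 383 to 570 CPM on the normal diet and 146 to 344 CPM with vehicle. The part of these cells in the results for the 42 genes was not tested.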

How the data were processed

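PolyA RNA sequencing of 22 mouse livers was deposited as raw read counts per gene, one table per cohort, which the authors did not normalize. The submitters' processing notes name HISAT2 (version 2.1.0) and StringTie (version 2.1.3b) with the mm10 build, Trimmomatic (version 0.38) and FastQC (version 0.11.7), without their roles or settings.

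Each cohort was fitted alone (11 libraries, 3 groups) with edgeR 4.0.16 in R 4.3.3: filterByExpr, TMM factors, a quasi-likelihood F test and Benjamini-Hochberg adjustment over all genes, called at an adjusted p under 0.05. Differences between cohorts came from 1 fit of all 22 libraries. The SE is the absolute log2 fold change over the root of F, and intervals cover 95%. Scripts were tested on simulated data. Alternatives were DESeq2 1.42.0, other scaling, filters and library sets, each replicate left out, and a replicate block.

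Members and gene lists were chosen with earlier results of these data known. Values by library are given for Mki67, Top2a, Ccnd1, Cdkn1a and the 4 members of smallest p in each diet or DTMB comparison, and fold changes for the 2 of smallest p in each role or other list described; further genes were named after their values were seen. A gene of another list that this rule would name is not reported here. Counting error is small at 50.1 to 66.7 M counts, except for members with few counts. Symbols were matched to RefSeq GRCm38.p6 for 42 of 42 members, and promoters for 34.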

Additional observations from a re-analysis of the deposited data

Results flagged for a closer look

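Among 168 tests of a gene within a group, 11 had a library set apart from the others of its group by more than Dixon's critical value, where chance flags about 5%. In HFD vehicle replicate 3, Mcm3 (1.47 CPM, next 3.58) and Mcm4 (3.52 CPM, next 5.16) were the lowest of their groups. In HFD vehicle replicate 1, Mcm7 was the lowest (8.13 CPM, next 9.18) and Ube2c the highest (1.21 CPM, next 0.647). Ccnd1 was the highest in HFD DTMB replicate 3 (30.4 CPM, next 13.9) and the lowest in MCD vehicle replicate 1 (145 CPM, next 341). In the normal-diet group of the MCD cohort, Ccne1 was the highest in replicate 4 (1.83 CPM, next 1.05), and Pcna (28.7 CPM, next 23.1) and Kif11 (1.81 CPM, next 1.01) were the highest in replicate 1. Ccne1 was the highest in MCD vehicle replicate 4 (5.86 CPM, next 3.8), and Cdkn1a in MCD vehicle replicate 2 (22 CPM, next 6.6).

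The diet effect differed between the cohorts, by edgeR's test of the difference, in 8 members, where 35.3% of all genes were called. Cohort and batch are the same, so diet and batch cannot be told apart in these differences. The log2 difference, MCD minus HFD, was 1.92 for Ccnd1, 1.47 for Ccne1, 1.85 for Ccne2, 1.35 for E2f8, 0.38 for Pcna, 1.95 for Cdkn1a, -1.59 for E2f1 and -1.38 for Tk1.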

How the results depend on the processing

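Counts of members called are given as higher/lower. High-fat diet, 21/1: 12 higher with the stricter filter (26 members tested), 1/0 without the libraries with acinar transcripts, 7/0 with all 22 libraries in one fit, and 0 lower with library size alone, no count filter, the replicate block (17 higher), a log2 fold change of at least 1, and only the groups compared; with 1 library left out, 14 to 25 higher and 0 to 2 lower. DTMB on the high-fat diet, 1/10: 2 higher with DESeq2, 5 lower with no count filter, 3 lower with the replicate block, 0/6 at a log2 fold change of at least 1, 0/0 without the libraries with acinar transcripts, 3/6 with only the groups compared and 0 lower with all 22 libraries (12 members at an unadjusted p under 0.05); with 1 left out, 0 to 1 higher and 1 to 14 lower. HFD DTMB against normal diet, 4/0: 1 higher at a log2 fold change of at least 1, 0 without the libraries with acinar transcripts, 2/1 with only the groups compared, 2 higher with all 22 libraries and 1 lower with the stricter filter; with 1 left out, 2 to 4 higher and 0 to 1 lower. MCD diet, 10/2: 15/3 with DESeq2, 21/1 with library size alone and 18 higher with all 22 libraries; with 1 left out, 8 to 18 higher and 1 to 2 lower. MCD DTMB against normal diet, 9/2: 1 lower with library size alone, no count filter, a log2 fold change of at least 1 and all 22 libraries, 6 higher with the replicate block; with 1 left out, 6 to 9 higher and 1 to 2 lower. Diet difference, 6/2: 10 higher with library size alone and 3/1 without the libraries with acinar transcripts; with 1 left out, 3 to 8 higher and 2 to 3 lower. DTMB on the MCD diet and the DTMB difference stayed at 0/0 in every setting run. The filter and the sets of fewer libraries leave fewer members or libraries to test, and the cause of the other changes was not tested. The shares of all genes called changed with the setting as well. With all 22 libraries in one fit 9.58% were higher on the high-fat diet (15.2% in the main fit). With DTMB on that diet 1.58% were lower there (6.04% in the main fit). This share was 2.96% with no count filter, 3.58% with the replicate block and 1.38% at a log2 fold change of at least 1. On the high-fat diet 12.2% were higher with the replicate block and 18.4% with the stricter filter. On the MCD diet 15.7% were higher with DESeq2 and 47.9% with library size alone (20.3% in the main fit). For the diet difference 29.6% were higher with library size alone (16.8% in the main fit).

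Signs turned only for members that were not called. With 1 library left out the log2 fold change ran from -0.56 to 0.045 for Cdkn1a with DTMB on the high-fat diet. For DTMB on the MCD diet it ran from -1.49 to 0.28 for Mki67, -0.69 to 0.29 for Top2a, -0.41 to 0.51 for Cdkn1a, -1.57 to 0.27 for Ccnb2, -1.34 to 0.25 for Racgap1, -1.65 to 0.086 for Kif20a, -0.98 to 0.17 for Foxm1, -0.81 to 0.057 for Bub1b and -0.057 to 0.24 for Rrm2 (-0.012 with library size alone); each of these but Rrm2 was highest without MCD vehicle replicate 2. Same-numbered libraries were treated as unpaired, because the labels do not say what a replicate number shares. Their deviations correlated at -0.58 to 0.57 in the HFD cohort (10 pairs, 5 above 0.1) and -0.41 to 0.12 in the MCD cohort (10 pairs, 2 above 0.1). Deviations from the means of so few libraries cannot settle whether they were paired. Depth limits members with few counts: Plk1, Bub1 and Cenpe had under 10 counts in each HFD cohort normal-diet library. Other mitotic members had few counts in that group too, such as Kif20a (5 to 17) and Cdc20 (7 to 18).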

Other observations

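With all 22 libraries on one scale, the normal-diet groups of the cohorts differed in some members. Cdkn1a was at 91.9 to 109 CPM (mean 98.3) in the HFD cohort and at 1.73 to 6.81 CPM (mean 3.83) in the MCD cohort, 25.7-fold apart. E2f8 was higher in the HFD cohort too, by 3.18-fold. In 14 members, among them Ccnd1 (3.03-fold), Ccne1 (3.94-fold) and Tk1 (2.82-fold), all MCD cohort normal-diet libraries lay above those of the HFD cohort. The normal-diet groups were wholly apart in 38.1% of the 42 members and in 34% of 16541 genes. Cohort and batch are the same in these labels, and cannot be told apart.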
